A study of Mus musculus with 12 samples.

Results

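The interferon regulatory factor (IRF) genes Irf1, Irf2, Irf3, Irf4, Irf5, Irf7, Irf8 and Irf9 were examined for binding sites of TET2 in cultured mouse blood cells. A site of the deposited lists was counted for an IRF gene when its midpoint lay inside the gene, or within 100 kb when a start or end of that gene was the nearest among 21883 protein-coding genes. By this rule the 8 genes held 8 of the 6895 sites of acute myeloid leukemia (AML) cells and 17 of the 18822 sites of immortalized myeloid cells. TET2 is an enzyme that oxidizes 5-methylcytosine in DNA, and the study compared cells with and without the full-length protein by chromatin immunoprecipitation sequencing (ChIP-seq), which locates DNA bound by a protein.

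The myeloid cells were hematopoietic cells carrying the retroviral transgene MigR1-AML1-ETO, with the genotype Tet2fl/fl; AML1-ETO (called WT) or Tet2-/-; AML1-ETO (Tet2KO). The AML cells had the genotype Npm1+/cA; Fl3+/ITD (WT) or Npm1+/cA; Fl3+/ITD; Tet2-/- (Tet2KO), with no transgene. All cells grew in suspension with stem cell factor at 50 ng/ml, interleukin 3 at 10 ng/ml and interleukin 6 at 10 ng/ml. Of 12 libraries, 8 used a rabbit antibody raised to the N terminus of TET2, on 2 WT and 2 Tet2KO samples per cell type, and each cell type had 1 input and 1 IgG library. The sources used here do not say whether a culture was 1 clone or came from pooled animals. The 2 lists hold positions only, 1 list per cell type, with no height, score or read count and no value per library. The depth behind a site is therefore unknown, no site has a replicate error, and WT could not be set against Tet2KO at any site. Site positions do not measure expression, so the labels of the cultures could not be checked against markers. The intervals below cover counting error over sites alone.

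IRF proteins are transcription factors that bind GAAA repeats, the core of the interferon-stimulated response element (ISRE), through a conserved DNA-binding domain. IRF3, IRF5 and IRF7 are switched on by pattern recognition receptors, IRF9 binds DNA with STAT proteins below the type I interferon receptor, and IRF1 and IRF2 act as activator and antagonist on many of the same elements. IRF4 and IRF8 are factors of the lymphoid and myeloid lineages that bind composite ETS-IRF elements together with PU.1. IRF8 is known for guiding progenitors toward monocytes and dendritic cells and away from granulocytes.

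TET2 sites lay over annotated start regions of 3 IRF genes, which are shown because they are the IRF promoters that the site lists reach, together with the adjoining upstream window of Irf1. The sequences are RefSeq promoter windows of GRCm38.p6, which has the coordinates of mm10, from 250 bases before to 50 bases after an annotated start, on the plus strand, 5′ to 3′. All 8 genes matched the promoter table, with 11 windows in all. Capitals mark matches to the ISRE core (GAAA, any 2 bases, GAAA), to the ETS-IRF composite (GGAA, any 2 bases, GAAA) and to the STAT element known as GAS, TTCNNNGAA.
Irf2, chr8:46739495-46739794: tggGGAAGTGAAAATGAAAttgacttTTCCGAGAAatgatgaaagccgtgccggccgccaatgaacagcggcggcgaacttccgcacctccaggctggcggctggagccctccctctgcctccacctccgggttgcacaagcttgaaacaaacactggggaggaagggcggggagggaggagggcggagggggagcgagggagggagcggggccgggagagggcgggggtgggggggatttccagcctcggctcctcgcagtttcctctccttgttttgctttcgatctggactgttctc
Irf1, upstream start, chr11:53769764-53770063: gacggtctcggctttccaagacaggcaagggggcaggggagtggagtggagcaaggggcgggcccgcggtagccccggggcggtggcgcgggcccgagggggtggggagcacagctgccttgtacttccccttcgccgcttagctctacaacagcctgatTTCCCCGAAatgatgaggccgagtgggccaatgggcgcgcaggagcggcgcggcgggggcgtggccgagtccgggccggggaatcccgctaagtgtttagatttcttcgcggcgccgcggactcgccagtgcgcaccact
Irf1, downstream start, chr11:53770223-53770522: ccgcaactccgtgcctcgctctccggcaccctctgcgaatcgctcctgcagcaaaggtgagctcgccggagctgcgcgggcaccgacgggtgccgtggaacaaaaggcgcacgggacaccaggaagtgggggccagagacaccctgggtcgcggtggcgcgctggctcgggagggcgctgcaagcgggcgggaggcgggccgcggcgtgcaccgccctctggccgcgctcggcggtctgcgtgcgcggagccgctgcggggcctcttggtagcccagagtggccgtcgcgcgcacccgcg
Irf9, upstream start, chr14:55603735-55604034: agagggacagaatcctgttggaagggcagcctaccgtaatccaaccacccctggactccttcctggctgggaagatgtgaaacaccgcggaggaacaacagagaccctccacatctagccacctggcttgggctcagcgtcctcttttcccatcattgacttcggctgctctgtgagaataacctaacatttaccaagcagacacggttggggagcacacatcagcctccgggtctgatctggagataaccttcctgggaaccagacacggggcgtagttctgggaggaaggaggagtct
The Irf2 window was covered in full by a site in both lists, and the downstream Irf1 window and the upstream Irf9 window were covered in full by a myeloid site alone. Another Irf9 window, at the start 55604579, had 103 of its bases under the same myeloid site. Over all protein-coding genes, 1.74% of 21262 promoter windows met an AML site and 19.0% met a myeloid site. By gene, 1 of the 8 had a window that met an AML site (1.94% of 17491 genes with a window) and 3 of the 8 a window that met a myeloid site (20.3%).

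Motif letters were searched in these windows on both strands. In the Irf2 window the ETS-IRF composite GGAAGTGAAA and the ISRE core GAAAATGAAA overlapped each other, beginning at positions -247 and -241 counted from the start. A GAS match, TTCCGAGAA, began at -224 and a match to the C/EBP motif TTGCNNAA, TTGCACAA, at -118, and all 4 matches lay under both the AML and the myeloid site. Irf2 was the 1 IRF gene with the ISRE core or the composite in a window, against 3.35% and 2.53% of all windows. The upstream Irf1 window held the GAS match TTCCCCGAA at -90, and the myeloid site at Irf1 began 140 bp beyond that match and 8 bp beyond the window. GAS letters were in 7.69% of all windows. The window at the Irf8 start held 2 GAS matches, TTCTCGGAA and TTCAGAGAA, and no site lay within 4 kb of them. None of the 11 windows held the RUNX motif TGTGGT (15.0% of all windows) or the AP-1 motif TGANTCA (6.99%), and the C/EBP letters stood in 10.2% of all windows. A match is a description of the letters and shows no binding by a factor.

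**Figure D1:**
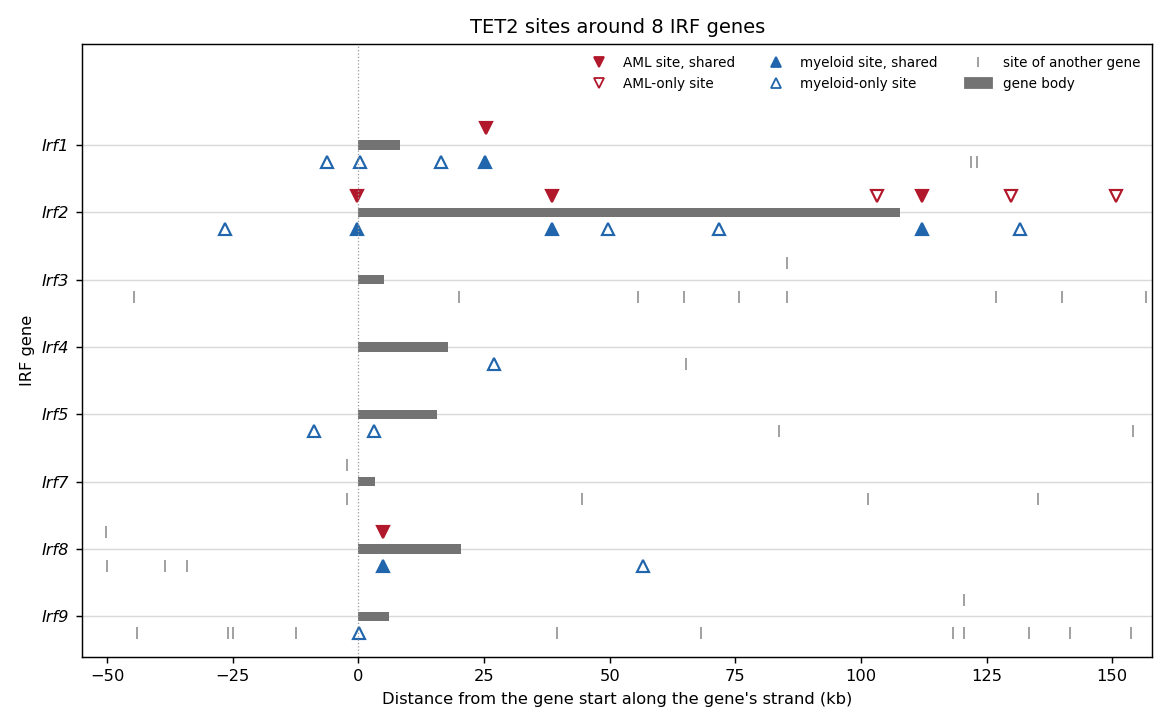
TET2 sites by distance from the gene start, along the gene's strand in kb, for 8 IRF genes. Triangles are sites counted for the gene (filled when shared between the lists), grey ticks are sites counted for another gene, and grey bars are gene bodies. Irf2 has sites of both lists at its start, inside the gene and past its end, and Irf3 and Irf7 have none of their own.

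Sites were spread unevenly over the family. In the AML list 3 of the 8 genes had a site, Irf2 with 6 and Irf1 and Irf8 with 1 each, where 18.6% of all protein-coding genes had one. In the myeloid list 6 of the 8 had a site, against 40.0% of all genes. Irf2 had 7 myeloid sites, Irf1 4, Irf5 2, Irf8 2, Irf4 1 and Irf9 1. Irf3 and Irf7 had 0 sites in either list. Of the 21883 protein-coding genes, 12681 besides Irf3 had 0 in both lists. An AML-only site was found at 1 of the 8 genes, Irf2, and at 6.56% of all genes, and a shared AML site at 3 of the 8 and at 14.6% of all.

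The sequence within 100 kb for which a gene's start or end is the nearest is called its territory, and it sets how many sites a gene would hold if sites were spread evenly. The territories of the 8 genes gave 1.97 AML and 5.54 myeloid sites, where 8 (exact Poisson 95% interval 3.45 to 15.8) and 17 (9.90 to 27.2) were counted. Irf2 alone supplied 6 of the 8 AML sites. Neighbouring sites are not independent, so these intervals are too narrow for a gene with clustered sites.

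**Figure D2:**
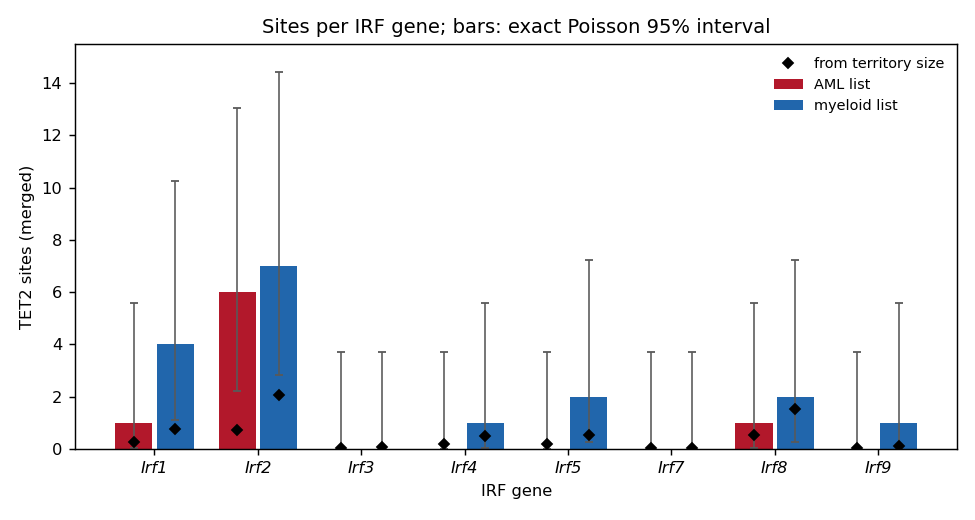
Merged TET2 sites per IRF gene in the AML and myeloid lists, with exact Poisson 95% intervals as whiskers and the number from territory size as diamonds. Irf2 stands at 6 and 7 sites, and Irf3 and Irf7 are at 0 with diamonds close to the axis.

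Irf2, which encodes an antagonist of IRF1 at interferon response elements, was the IRF gene with most TET2 sites in both lists, with 6 and 7. The order in AML cells rested on narrow sites. With sites of at least the median width of their list, Irf2 had 1 AML site and 4 myeloid sites, and Irf1 had 1 and 3. The gene spans 108 kb of chromosome 8, from 46739745 to 46847458 on the plus strand. Its 6 AML sites (2.20 to 13.1) stood against 0.73 from its territory, and its 7 myeloid sites (2.81 to 14.4) against 2.06. At least 6 AML sites were found at 27 genes (0.123%) and at least 7 myeloid sites at 187 genes (0.855%), and 21 genes reached both. Its territory of 204 kb was larger than that of most genes, at the 91.2 percentile. Runx3, a RUNX family transcription factor of blood and other tissues, was the 1 other gene with the same 6 AML, 7 myeloid and 3 shared sites.

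The shared Irf2 sites lay at the start, in the first part of the gene body and past the gene end. Among all annotated genes the lncRNA Gm16675 was nearest to the site at the start and the lncRNA Gm31172 to the shared pair inside the gene. The AML site at the start (chr8:46739115-46740004) was 889 bp wide, wider than or as wide as 94.9% of AML sites, and its midpoint lay 0.19 kb before the gene start. The myeloid site there (chr8:46739172-46739962) lay wholly inside it, with midpoints 7.5 bp apart. The next shared pair lay 38.6 kb into the gene, at chr8:46778012-46778697 in the AML list, and overlapped the myeloid site by 634 bp. The last shared pair lay 4.36 kb past the gene end, at chr8:46851477-46852158 in the AML list, and all 681 bp of it were in the myeloid site.

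The unshared Irf2 sites lay in different stretches of the locus apart from 1 close pair. The AML-only sites lay at 103, 130 and 151 kb from the start, around and past the gene end. Of the myeloid-only sites, 1 lay 26.5 kb before the start, those at 49.7 and 71.7 kb lay inside the gene, and 1 lay at 132 kb, past its end. The AML-only site at 130 kb and the myeloid-only site at 132 kb were separated by 1.04 kb. The other AML-only sites were 8.26 and 13.8 kb from the nearest myeloid site, where the median over 1973 AML-only sites was 22.8 kb (quartiles 6.70 and 71.5 kb). The AML-only sites were 651, 655 and 683 bp wide, each under the AML-only median of 705 bp. Of the 7 unshared sites of Irf2, 3 were AML-only (42.9%), against 11.6% of the unshared sites of all genes, with 0.81 of the 7 from that share. The odds ratio was 5.73 (95% interval 0.839 to 33.9; Fisher's exact test, two-sided, p = 0.0379), and Irf2 did not pass after adjustment over the 344 genes with at least 5 unshared sites (adjusted p = 0.652). Over the alternatives that p ran from 0.652 to 1. In all, 3 genes passed (0.872%), and no other IRF gene had enough unshared sites to be tested. Fisher's test took neighbouring sites of a gene as independent, which they are not, and it held no replicate error between the cultures.

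Irf1, an interferon-induced activator first known for the beta interferon promoter, had 1 AML site and 4 myeloid sites. The gene lies on chromosome 11 from 53770014 to 53778374. Its 1 AML site (chr11:53794834-53795816) lay 25.3 kb from the start and 17.0 kb past the gene end. It was shared, overlapped a myeloid site of 1174 bp by 948 bp, and both were wide for their lists, at the 97.6 and 97.1 percentiles. Of the 4 myeloid sites 1 was thus shared, near the 26.2% of all myeloid sites. The 3 myeloid-only sites lay 6.18 kb before the start, 0.41 kb after it, and 16.5 kb from it, past the gene end. The site at 0.41 kb (chr11:53770071-53770780) is the 1 that covered the downstream promoter printed above. Its 4 myeloid sites stood against 0.75 from its territory, and 4.91% of genes had at least as many. Among all annotated genes the nearest to the distal sites was the lncRNA Gm12216, and Mir7671 was nearest to the upstream site. No AML site lay within 24 kb of the Irf1 start.

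**Figure D3:**
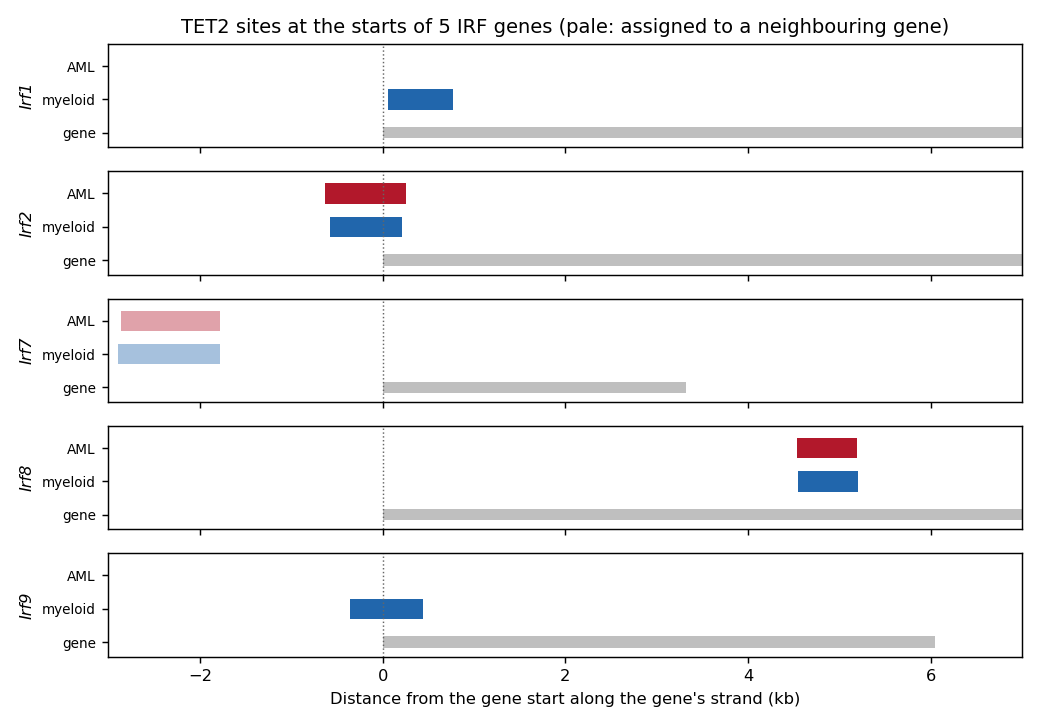
Extent of TET2 sites from 3 kb before to 7 kb after the gene starts of 5 IRF genes, in kb along the gene's strand. Irf2 has an AML and a myeloid site over its start, Irf1 and Irf9 have a myeloid site alone, the Irf8 sites lie 4.86 kb (AML) and 4.87 kb (myeloid) into the gene, and the pale pair before Irf7 is counted for Cdhr5.

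Among the factors switched on by pattern recognition receptors, Irf5 alone had sites of its own, in the myeloid list. Irf5, a factor of Toll-like receptor signalling in macrophages (chromosome 6, 29526130 to 29541869), had a site 8.79 kb before its start and a site 3.15 kb inside the gene (chr6:29528914-29529642). The nearest AML site was 659 kb away, at Ube2h. Irf3, the constitutively expressed factor of the first wave of beta interferon, lies on chromosome 7 from 44997648 to 45002848, between Bcl2l12 at 0.010 kb and Scaf1 at 0.098 kb. Irf7, the interferon-induced amplifier of type I interferon, lies on chromosome 7 from 141263183 to 141266499 on the minus strand, between Phrf1 at 0.432 kb and Cdhr5 at 2.58 kb. Such close neighbours leave both with small territories, of 5.25 and 4.82 kb, from which an even spread gives 0.053 and 0.049 myeloid sites. Over all genes, 18.5% had a myeloid site within 1 kb of a start or end, so an even spread may give too few for such small territories. By either number the counts of 0 at Irf3 and Irf7 say little.

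The surroundings of Irf3 and Irf7 differed. The site nearest to Irf3 was a myeloid-only site 14.8 kb past its end, at the start or end of Rras, and the nearest AML site was 80.1 kb away. A shared site lay 2.33 kb (AML) and 2.34 kb (myeloid) before the Irf7 start, at chr7:141268283-141269366 in the AML list. The rule counted it for Cdhr5, whose nearer end was 0.26 kb from the AML midpoint. Its near edge was 1609 bp (AML) and 1599 bp (myeloid) from the Irf7 promoter window.

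By the rule the PU.1 partners Irf8 and Irf4 had 1 and 0 AML sites and 2 and 1 myeloid sites. At least 1 AML site was found at 18.6% of all genes, at least 2 myeloid sites at 18.0% and at least 1 myeloid site at 40.0%. Irf8 lies on chromosome 8 from 120736358 to 120756694, and its 1 AML site (chr8:120740889-120741548) lay 4.86 kb inside the gene. It was shared, with 648 bp in the myeloid site chr8:120740900-120741562 and midpoints 12.5 bp apart. A myeloid-only site (chr8:120792544-120793282) lay 56.6 kb from the start, 36.2 kb past the gene end, and 51.0 kb from the nearest AML site. The lncRNA Gm33199 was its nearest annotated gene. With 0.54 AML and 1.53 myeloid sites from a territory of 151 kb, the counts of 1 and 2 lay near what territory size gives. No site of either list touched the promoter windows of Irf8. Between the end of Cox4i1 and the Irf8 start lie 62.1 kb. The 31.1 kb of it nearer to Irf8 held 0 sites of either list, and the sites in the part nearer to Cox4i1 were counted for that gene. They were a shared pair 50.1 kb before the Irf8 start, at chr8:120685797-120686642 in the AML list, and myeloid-only sites 38.5 and 34.2 kb before it. Irf8 is known to be controlled by enhancers far from its start on both sides, and these positions assign no site to a target gene. Irf4, a factor of plasma cells and of alternatively activated macrophages (chromosome 13, 30749233 to 30766981), had 1 myeloid-only site 9.24 kb past its end (chr13:30775902-30776541). The nearest AML site was 79.7 kb from its start, at Dusp22. The territory of Irf4 gave 0.17 AML and 0.48 myeloid sites.

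Irf9, the DNA-binding subunit of the complex ISGF3, had 1 myeloid-only site across its start. The gene (chromosome 14, 55603985 to 55610030) begins 0.311 kb from Rnf31, and its territory of 10.2 kb gave 0.10 myeloid sites. That number takes an even spread, while 18.5% of all genes had a myeloid site within 1 kb of a start or end. The site (chr14:55603631-55604431) was 800 bp wide and centred 0.046 kb after the start. Within 50 kb of that start 5 other myeloid sites were counted for Dcaf11, Psme1, Rnf31 and Tssk4. The nearest AML site was 114 kb from the gene.

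Position and sharing over the 8 genes stood beside the values for all sites as follows. Of the 8 AML sites, 5 were shared (62.5%, exact Clopper-Pearson 95% interval 24.5 to 91.5), against 71.4% of all AML sites. Of the 17 myeloid sites, 5 were shared (29.4%, 10.3 to 56.0), against 26.2% of all. Within 1 kb of a gene end lay 1 of the 8 AML sites (12.5%, 0.316 to 52.6), the site at the Irf2 start, against 8.82% of all AML sites. In the myeloid list 3 of 17 did (17.6%, 3.80 to 43.4), at Irf1, Irf2 and Irf9, against 22.6%. Counted by gene, 1 of the 8 had an AML site within 1 kb of its start or end and 3 of the 8 a myeloid site, against 2.74% and 18.5% of all genes. Each interval given for a share of sites holds the value for all sites, so no departure in these shares was detectable with so few. The counts by gene were given no interval. Inside a gene body were 3 of the 8 AML sites and 7 of the 17 myeloid sites, where 49.8% and 53.4% of all sites lay inside a protein-coding gene. The midpoints of the 5 shared pairs were 5.5 to 130 bp apart, against a median of 25.5 bp over all shared sites (quartiles 11.5 and 49.0).

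**Figure D4:**
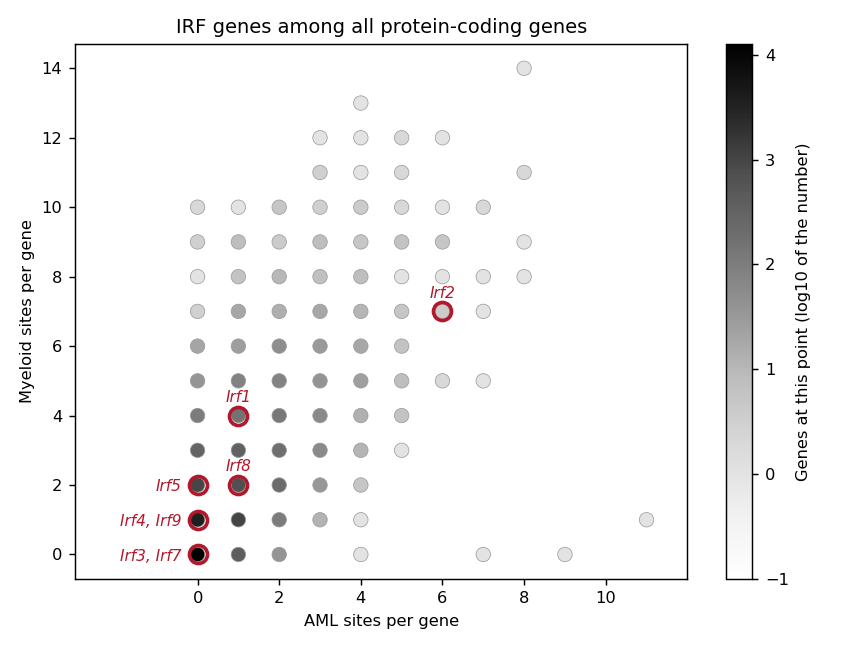
Myeloid sites against AML sites per protein-coding gene, with shading for the log10 number of genes at each point and red rings for the IRF genes. Irf2 stands alone among them at 6 AML and 7 myeloid sites, and the other 7 lie at 0 or 1 AML site and at most 4 myeloid sites.

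Genes that act with the IRF proteins were then counted from 6 lists, of which 91 entries for 89 genes matched the gene table. The median over all protein-coding genes was 0 sites in each list, and no test was made on a list. Of 12 interferon receptor and signalling genes, 6 had an AML site (50.0%) and 10 had a myeloid site (83.3%), against 18.6% and 40.0% of all genes. Their territories gave 3.03 AML and 8.54 myeloid sites, where 12 and 34 were counted. Ifngr1, a chain of the interferon gamma receptor, had 3 AML sites and 6 myeloid sites. Ifnar1, a chain of the type I interferon receptor, had 3 and 3, and the kinase gene Jak1 had 2 and 3. The feedback inhibitor genes Socs1 and Socs3 had 6 and 4 myeloid sites and 0 AML sites. Stat2 and Tyk2, named after their values were seen, had 0 in both lists.

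Of 19 genes for kinases, sensors and adaptors that lead to IRF activation, 4 had an AML site (21.1%) and 8 had a myeloid site (42.1%), close to the shares of all genes. Their territories gave 3.53 AML and 9.95 myeloid sites, where 5 and 12 were counted. Traf3, an adaptor upstream of IRF3 and IRF7, had 4 myeloid sites and 0 AML sites. Tlr4, the receptor for lipopolysaccharide, had 2 and 2, and Myd88 and Ikbke had 1 and 1 each, and the AML sites of these 3 genes were shared. Cgas, the DNA sensor, had 1 myeloid site alone. Ddx58, the RNA sensor RIG-I, was the 1 gene of the list with a site in AML cells alone, and it was named after its values were seen. Of 15 DNA-binding partners and corepressors, 6 had an AML site (40.0%) and 9 had a myeloid site (60.0%), against 18.6% and 40.0% of all genes. Their territories gave 4.23 AML and 11.9 myeloid sites, where 19 and 42 were counted. Spi1, which encodes PU.1, had 2 AML sites, both shared, and 5 myeloid sites. The corepressor gene Irf2bp2 had 1 AML-only site and 6 myeloid-only sites. Runx1 and Ikzf1, which encodes Ikaros, had 8 and 14, and 4 and 7. Cebpa and Ikzf3 had 2 myeloid sites each and 0 AML sites.

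Of 24 interferon-stimulated genes, 2 had an AML site (8.33%) and 7 had a myeloid site (29.2%), against 18.6% and 40.0% of all genes. The other 17 had 0 sites in both lists, as had 12681 of the 21883 protein-coding genes, with Irf3 not counted. Cxcl10, a chemokine gene, had 1 AML site and 3 myeloid sites, Oas3 had 1 and 1, and B2m and Gbp5 had 1 myeloid site alone. The territories of these genes gave 2.86 AML and 8.05 myeloid sites in all, where 2 and 9 were counted. Of 16 genes in the monocyte and dendritic program guided by IRF8, 8 had an AML site (50.0%) and 13 had a myeloid site (81.2%), against the same 18.6% and 40.0% of all genes. From their territories 6.87 AML and 19.4 myeloid sites would come, where 17 and 37 were counted. Ly86, which encodes MD-1, had 4 and 8. Bcl6 and Cx3cr1 had 3 and 4 each, Id2 had 2 and 4, and Cd74 and Cst3 had 1 myeloid site alone. All 5 granulocyte factor genes had a myeloid site (100%) and 3 had an AML site (60.0%), against 40.0% and 18.6% of all genes. They had 9 AML and 20 myeloid sites in all, against 1.30 and 3.65 from their territories. Cebpb had 5 AML and 11 myeloid sites, Gfi1, a repressor in granulocytes, had 2 and 4, and Cebpe had 2 and 2. Cebpa and Csf3r had 2 and 1 myeloid sites and 0 AML sites.

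**Figure D5:**
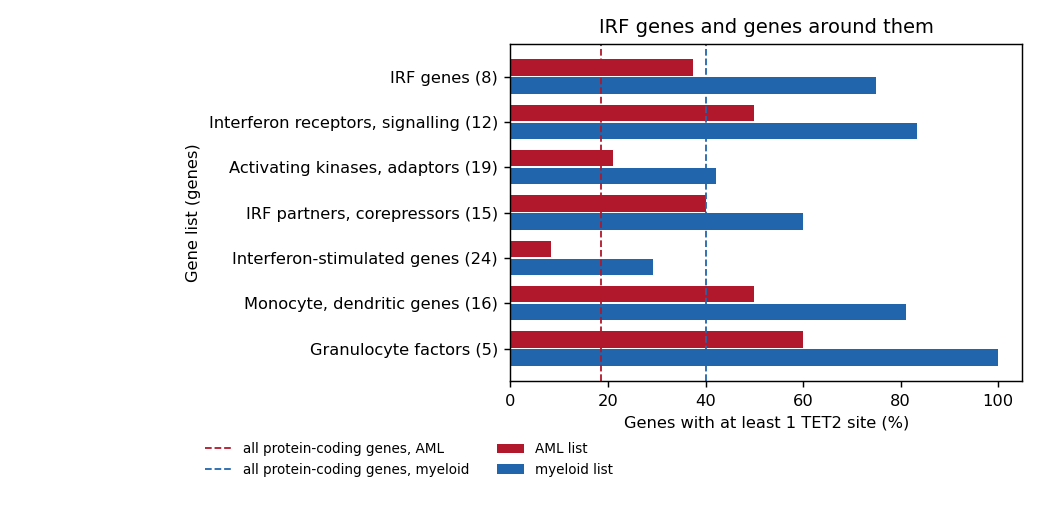
Percent of genes with at least 1 TET2 site in the AML and myeloid lists, for the IRF genes and 6 lists of genes around them (number of genes in brackets), with dashed lines for all protein-coding genes at 18.6% and 40.0%. Interferon-stimulated genes are the list below both lines, but their 2 AML and 9 myeloid sites stood near the 2.86 and 8.05 from their territories.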

How the data were processed

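TET2 ChIP-seq had been made from 12 libraries. Chromatin was fixed with 2 mM disuccinimidyl glutarate and 1% formaldehyde and sheared to 200 to 500 bp, per the labels' protocols. The authors used Trimmomatic, Bowtie2 and MACS2 with mm10, per the submitters' processing notes; the sources used here do not give versions, thresholds, pooling of replicates or the use of Tet2KO, IgG and input libraries. The deposited files hold a chromosome, start and end per site, per the file headers, and no other measurement. Whether starts count from 0 is not stated, so positions are uncertain by 1 bp; starts were read as counted from 0. Of 7002 AML sites, 1 lay on a contig and was not used, and 19706 myeloid sites were used. Overlapping sites of a list were merged (106 and 884 merges), and sites of the lists that overlapped by at least 1 bp were called shared. Genes, strands and promoter windows came from RefSeq tables of GRCm38.p6. Distances run from the site midpoint to the gene's start as annotated over all its transcripts. Fisher's exact test set the AML-only and myeloid-only sites of each gene with at least 5 unshared sites against those of all other genes (1666 and 12721 in all), with Benjamini-Hochberg adjustment and a threshold of 0.05. Python 3.11.15, pandas 2.3.3 and scipy 1.17.1 were used.

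The 8 genes and the gene lists were chosen with earlier results of these data known. From each list the text names up to 4 genes with most sites, ties by symbol, plus the 2 at most whose sites were in a single list. Mx1 and Mx2 had no protein-coding entry, and some genes that the rule takes in are not reported. Alternatives changed the merging, the overlap, the assignment limit, the competing genes, the gene-end limit, the site width and the minimum of unshared sites.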

Additional observations from a re-analysis of the deposited data

How the results depend on the processing

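Of 51 values recomputed under alternatives, 44 stayed within 1.5 times the reported count or on the same side of the threshold. That limit let the number of IRF genes with an AML site fall from 3 to 2. Irf1 lost its 1 AML site with all annotated genes, and Irf8 lost its 1 with sites of at least the median width. With all annotated genes competing for a site, the IRF genes had 10 of 17 myeloid sites and 3 of 5 shared AML sites, since lncRNA genes and a miRNA gene took the rest. With sites of at least the median width of their list, they had 2 AML sites, 2 shared AML sites and 10 myeloid sites. The number of genes whose AML-only and myeloid-only sites differed was 3, and it was 1 with all annotated genes (143 tested) and 1 with a limit of 20 kb (62 tested), where fewer genes had enough sites. Irf2 had too few unshared sites to be tested at 20 kb. Reading starts as counted from 1 was chosen after seeing the data and changed none of the counts for the IRF genes. No paired analysis was possible because the lists have no value per library. A stricter threshold could not be tried without scores, and depth cannot be judged.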
